A study of Mus musculus with 9 samples.

Results

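The set holds 30 genes that mark regions and cell types of the forebrain, chosen by symbol from 34714 gene symbols in a table of read counts from mouse cortex. It has 9 striatal, 4 thalamic, 1 hippocampal, 4 hypothalamic, 8 cortical layer and 4 interneuron genes. All 30 had a row, and 28 had enough counts to be tested. Bulk poly(A) RNA was sequenced from cortical tissue of 9 mice (Mus musculus). One group of 3 had experimental autoimmune encephalomyelitis (EAE), in which immune cells attack myelin and which is used to model multiple sclerosis, and received Au18(L-NIBC)14, a gold nanocluster named by its formula. The other groups were 3 mice with EAE and no such treatment, and 3 naive mice. No group carries a named allele or transgene. The sources used here do not give strain, age, sex, dose, day of sampling, how EAE was induced or how the cortex was dissected.

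A piece of cortex lies over the striatum and next to the hippocampus, so bulk RNA from it can carry transcripts of neighbouring regions. Striatal projection neurons are GABAergic cells of a direct pathway, which carry the dopamine receptor gene Drd1 and the substance P precursor gene Tac1, and of an indirect pathway, which carry Drd2, the adenosine receptor gene Adora2a and the enkephalin precursor gene Penk. Within the cortex, excitatory neurons of each layer express their own transcription factors, and inhibitory interneurons are classed by markers such as parvalbumin (Pvalb), somatostatin (Sst) and vasoactive intestinal peptide (Vip). In bulk tissue, fewer cells of a type and less RNA per cell cannot be told apart.

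Total counts per library ranged from 26972179 to 45243553. Slc17a7, a vesicular glutamate transporter gene that cortical excitatory neurons express, was between 1152 and 1439 CPM in all 9 libraries. CPM is the usual depth-scaled count, here with TMM factors. Gad1, which encodes a GABA-synthesising enzyme, was between 300.7 and 369 CPM. These ranges do not test the tissue label. Libraries stood apart in other markers. Summed over 8 choroid plexus genes, EAE replicate 1 had 908 CPM, and the other 8 libraries had between 8.27 and 106 CPM. Summed over 8 myelin genes, treated replicate 3 had 9548 CPM and treated replicate 1 had 2903 CPM, with the other libraries between those values.

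The striatal genes varied widely between mice, and they did so within every group. Drd1 (chromosome 13, 54051183 to 54055658, GRCm38.p6) was at 14.7, 46.5 and 16.5 CPM in treated EAE replicates 1, 2 and 3, at 33.5, 49.3 and 10.2 CPM in EAE and at 68.5, 18.7 and 8.93 CPM in naive libraries. Both its lowest and its highest value were thus in naive mice, and the 3 groups overlapped. Drd2 (chromosome 9, 49340360 to 49408177), the receptor gene of the indirect pathway, had 7.94, 39.4 and 8.01 CPM in treated EAE, 35.5, 54.6 and 2.40 CPM in EAE and 67.4, 13.4 and 3.93 CPM in naive libraries. Its highest library exceeded its lowest 28.1-fold, the widest ratio of the 9 striatal genes. Pde10a, a phosphodiesterase gene of striatal projection neurons, had the narrowest ratio at 6.03-fold, and the median of the 9 was 8.33-fold.

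The promoter of Drd2 is shown because that gene spans the widest range among the striatal members. The sequence runs from 250 bases before to 50 bases after the RefSeq start (chr9:49340153-49340452, GRCm38.p6, plus strand), 5′ to 3′, and capitals mark TGACG on either strand, the core of a cAMP response element, of which it holds none.
Drd2: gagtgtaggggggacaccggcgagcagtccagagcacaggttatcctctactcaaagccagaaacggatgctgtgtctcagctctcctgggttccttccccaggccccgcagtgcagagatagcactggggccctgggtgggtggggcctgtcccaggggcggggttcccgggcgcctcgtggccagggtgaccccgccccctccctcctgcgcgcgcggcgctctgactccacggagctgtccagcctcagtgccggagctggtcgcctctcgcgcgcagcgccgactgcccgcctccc
Of the 30 members, 25 had a promoter in the RefSeq table, with 36 starts in all. The letters TGACG, read on both strands, were in the promoters of 6 of these 25 genes and in 23.0% of 27025 genes overall. The full palindrome TGACGTCA, which contains TGACG on each strand, was in 1 of the 25 (Sst) and in 2.03% of all genes. These are matches of letters and not measured binding sites.

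Within each group the same library was highest for all 9 striatal genes, whatever their pathway. Penk (chromosome 4, 4133536 to 4138815) had 92.9, 256.7 and 59.0 CPM in treated EAE, 222, 281.5 and 34.8 CPM in EAE and 334, 152 and 38.4 CPM in naive libraries. Ppp1r1b, which encodes the dopamine-regulated phosphatase inhibitor DARPP, had 106, 342 and 136 CPM in treated EAE, 340.3, 459.7 and 97.7 CPM in EAE and 499, 168 and 74.0 CPM in naive libraries. Direct-pathway and indirect-pathway genes were high or low in the same libraries. Naive replicate 1 was the highest library for 9 of 9 striatal genes (for 8 of 9 without TMM factors), and the lowest was EAE replicate 3 for 6 of them and naive replicate 3 for the other 3. Within the treated group replicate 2 was highest for 9 of 9, and the lowest was replicate 1 for 4 genes and replicate 3 for 5. In EAE, replicate 2 was highest and replicate 3 lowest for 9 of 9, and in naive mice replicate 1 was highest and replicate 3 lowest for 9 of 9. Adora2a, Tac1, Rxrg (a retinoid receptor gene) and Rgs9 (a regulator of G protein signalling) had highest-to-lowest ratios within groups from 2.52 to 18.3.

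**Figure D1:**
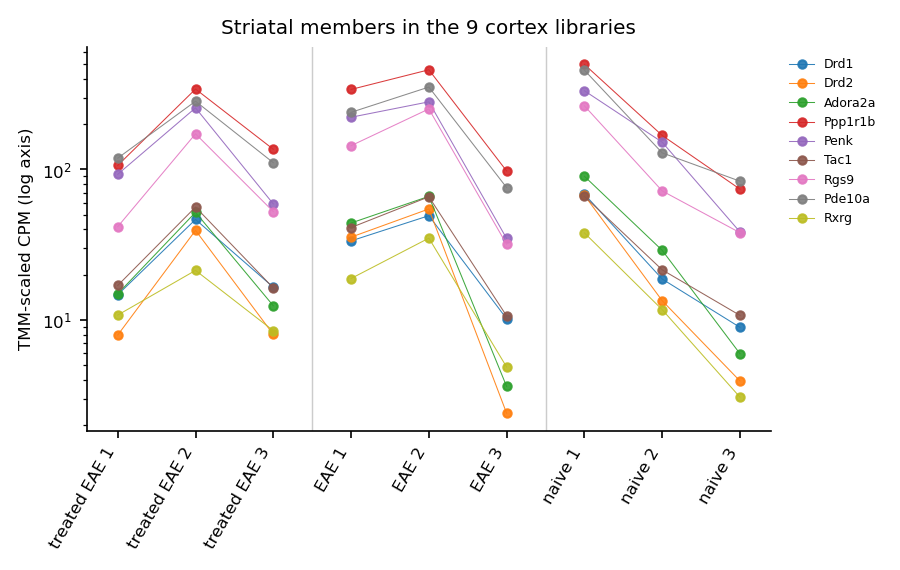
TMM-scaled CPM of the 9 striatal genes on a log axis in each of the 9 libraries, from left to right treated EAE, EAE and naive, with thin lines that only join the points of a gene within a group. Naive replicate 1, EAE replicate 2 and treated replicate 2 are the highest of their groups for all 9 genes.

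A further 14 striatal genes that are not members had their highest values in the same libraries within each group. These included Adcy5, a striatal adenylyl cyclase gene, at 252, 422 and 244.5 CPM in treated EAE, 340.4, 496 and 171 CPM in EAE and 573, 275 and 165 CPM in naive libraries. The phosphodiesterase gene Pde1b had 205, 339.8 and 169 CPM in treated EAE, 283, 383 and 149 CPM in EAE and 487, 233 and 146 CPM in naive libraries. In each group the library that was highest for the 9 members was highest for 14 of these 14 as well. Over all 9 libraries naive replicate 1 was highest for 11 of them and EAE replicate 2 for 3, and the lowest was EAE replicate 3 for 7 and naive replicate 3 for 7. Summed over the 14, treated libraries ranged from 872 to 1788 CPM, EAE libraries from 631 to 2278 CPM and naive libraries from 644 to 2679 CPM. The transcription factor gene Six3 had a ratio of highest to lowest library of 24.7-fold, with 14 counts in the lowest.

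The spread was put in numbers as the biological coefficient of variation (BCV), edgeR's estimate of the variation between libraries of a group beyond counting error. The median BCV was 68.8% for the 9 striatal members (57.2% to 90.5%), 14.5% for the 8 layer members and 12.4% for the 4 interneuron members. Over all 18644 tested genes the median was 14.1%, and the 95th percentile was 43.3%. All 9 striatal members and 12 of the 14 other striatal genes lay above that percentile. Wide spread was not limited to striatal genes: the median BCV was 61.6% for 8 choroid plexus genes (8 above that percentile), 57.9% for 8 other hippocampal genes (5 above) and 50.2% for the 2 hypothalamic members tested (1 above). When the mean log2 CPM of the 14 other striatal genes was added to the model as a term, a choice made after the data were seen, the median BCV of the 9 striatal members was 12.6% (9.0% to 18.4%). For all tested genes it was then 13.1%. The term comes from the same libraries, so this describes how the striatal genes moved together and is no measure of a group difference.

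**Figure D2:**
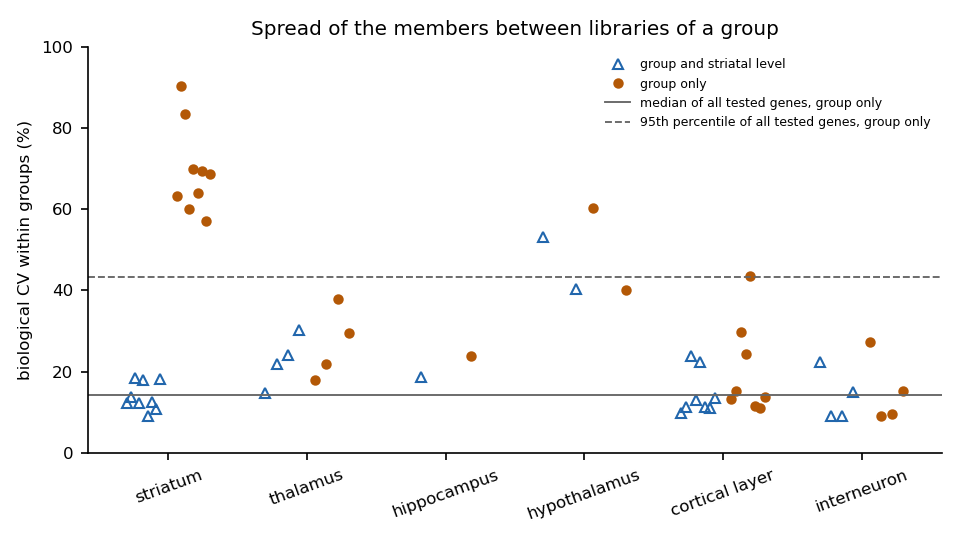
Biological coefficient of variation between libraries of a group, in percent, for the 28 tested members by region, with triangles from the model with group and striatal level and filled circles from the model with group only. With group only, the 9 striatal genes lie between 57.2% and 90.5%, above the dashed line at 43.3% (95th percentile of all tested genes), and with the striatal term they lie between 9.0% and 18.4%.

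With this spread, no group difference in the striatal genes could be made out. In treated against untreated EAE the log2 fold changes of the 9 ran from -0.73 to -0.26 with a median of -0.52, in EAE against naive from -0.14 to 0.27 with a median of 0.11, and in treated EAE against naive from -0.66 to -0.14 with a median of -0.38. For all tested genes these medians were 0.00, -0.01 and 0.01. In each of the 3 comparisons edgeR called 0 of 9, with 0 at an unadjusted p under 0.05 and 0 called by DESeq2. The precision was low: for Drd1 in EAE against naive the log2 fold change was -0.06 (SE 0.84, 95% interval -2.0 to 1.88, edgeR adjusted p = 0.983). Without naive replicate 1 the same value was 1.17, and without EAE replicate 2 the treated value against EAE was 0.24 where it was -0.26 with all libraries. With the striatal term the standard errors of the 9 genes were between 0.09 and 0.22. The log2 fold changes of EAE against naive were then between -0.32 and 0.33, and edgeR called none. Because the term is itself a striatal level, it would also take out a group difference shared by striatal genes. That fit therefore cannot test for one.

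The 8 layer members were far steadier than the striatal ones, with a median BCV near that of all tested genes (14.5% and 14.1%). Other cortical lists spread more: 18 other layer genes had a median BCV of 23.2% (15 above the median of all tested genes). For 22 other interneuron genes it was 18.9% (16 above). Cux2, an upper-layer transcription factor gene, had 132, 140.5 and 156 CPM in treated EAE, 108, 117 and 159.6 CPM in EAE and 126, 146 and 153 CPM in naive libraries. Rasgrf2, which encodes an exchange factor of upper-layer neurons, had 235, 264 and 201 CPM in treated EAE, 227, 245 and 253 CPM in EAE and 208, 253 and 242 CPM in naive libraries, the narrowest range of the 8 at 1.32-fold. Tbr1, a transcription factor gene of deep-layer corticothalamic neurons, had 116, 142 and 156 CPM in treated EAE, 116, 95.8 and 121 CPM in EAE and 131, 122 and 133 CPM in naive libraries. Its EAE values all lay below the naive ones and overlapped the treated ones. Summed over the 8 genes, libraries ranged from 721 to 792 CPM in treated EAE, from 675 to 737 CPM in EAE and from 742 to 772 CPM in naive mice.

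Foxp2, Fezf2 and Bcl11b were the exceptions, with the highest BCVs of the layer members. Of these, Foxp2 and Bcl11b are layer markers that striatal projection neurons also express. Foxp2 had 8.38, 24.0 and 15.4 CPM in treated EAE, 17.9, 17.1 and 7.71 CPM in EAE and 29.8, 10.4 and 9.37 CPM in naive libraries, a BCV of 43.6%. Bcl11b had 104, 104 and 68.4 CPM in treated EAE, 96.2, 108 and 66.9 CPM in EAE and 141, 89.6 and 66.3 CPM in naive libraries, a BCV of 24.4%. Both were highest in naive replicate 1, where the striatal genes were highest too. With the striatal term the BCVs of Foxp2 and Bcl11b were 22.3% and 12.9%. The drop was not particular to them: Fezf2 went from 29.8% to 23.7%, Cux2 from 13.3% to 9.78% and Rorb from 15.3% to 11.3%. Tbr1, Rasgrf2 and Tle4 hardly changed. Fezf2, which specifies subcerebral projection neurons, varied as well, with 31.3, 27.9 and 29.5 CPM in treated EAE, 23.2, 11.5 and 37.6 CPM in EAE and 29.4, 22.0 and 37.0 CPM in naive libraries, but was lowest in EAE replicate 2.

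**Figure D3:**
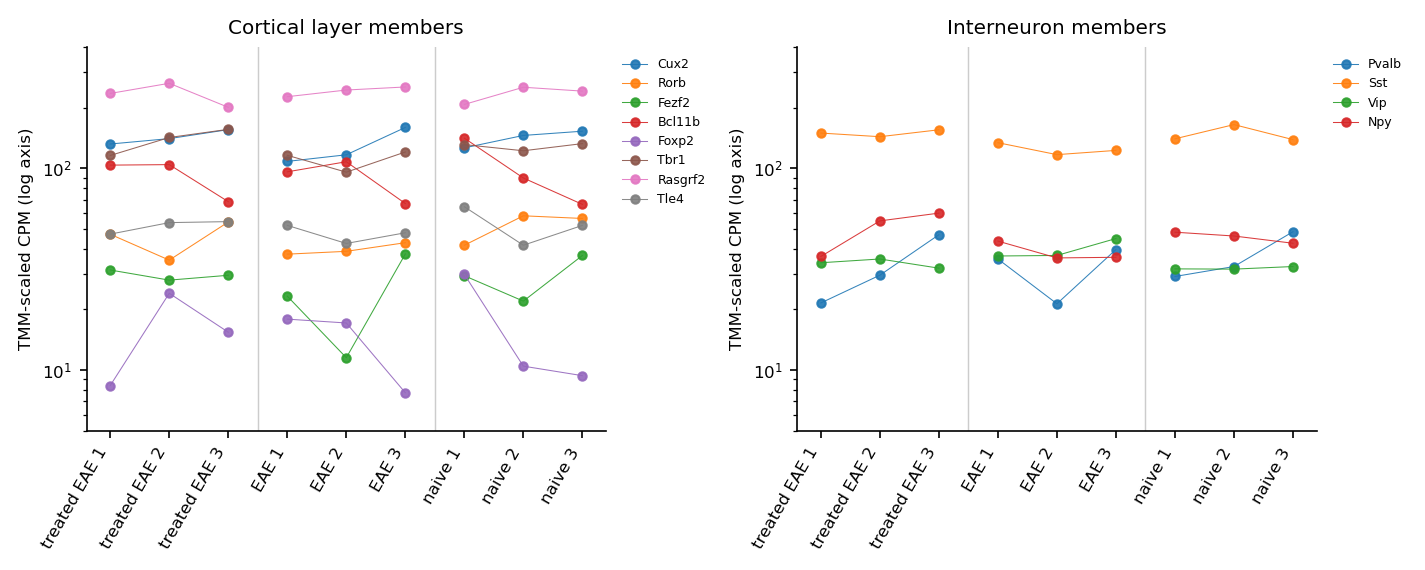
TMM-scaled CPM on a log axis of the 8 layer genes (left) and the 4 interneuron genes (right) in each library, from left to right treated EAE, EAE and naive, with thin lines that only join the points of a gene within a group. Most genes stay within a narrow band, and Foxp2, which ranged 3.86-fold, is the widest.

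Of the 8 layer genes 0 passed the edgeR test in any comparison, and DESeq2 called 0. At an unadjusted p under 0.05 there was 1 in EAE against naive (16.4% of all tested genes) and 1 in treated against untreated EAE (15.1%). The first was Rorb, a nuclear receptor gene of the granular layer, at 39.7 ± 2.75 CPM in EAE and 52.1 ± 9.14 CPM in naive libraries (SD, n = 3 each). Its log2 fold change was -0.39 (SE 0.17) with an edgeR adjusted p of 0.297. The second was Tbr1, at 138 ± 20.5 CPM in treated EAE and 111 ± 13.2 CPM in EAE (0.32, SE 0.12, edgeR adjusted p = 0.251). The median log2 fold change of the 8 was 0.16 in treated against untreated EAE and -0.18 in EAE against naive, with 7 of 8 above 0 in the first and 7 of 8 below 0 in the second. Without EAE replicate 2 the EAE median was -0.10, and without naive replicate 1 it was -0.12. Both comparisons share the EAE libraries. Tle4, a corepressor gene of deep-layer neurons, had log2 fold changes of 0.13 and -0.15. The other list of 18 layer genes had medians of 0.20 and -0.09 and 0 genes called by edgeR, with 2 at an unadjusted p under 0.05 in each, and Pcp4, an abundant gene that the striatum shares, ranged from 91.1 to 281 CPM with its highest value in naive replicate 1. DESeq2 called Ccn2 higher in EAE than in naive libraries.

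The interneuron genes Sst and Vip had the lowest BCVs of all tested members, 9.13% and 9.62%. Their promoters are shown because both peptide genes are classic cAMP-responsive genes and leaned in opposite directions here. The windows are chr16:23890795-23891094 (minus strand) and chr10:5638968-5639267 (plus strand) of GRCm38.p6, from RefSeq, 5′ to 3′, and capitals again mark TGACG on either strand.
Sst: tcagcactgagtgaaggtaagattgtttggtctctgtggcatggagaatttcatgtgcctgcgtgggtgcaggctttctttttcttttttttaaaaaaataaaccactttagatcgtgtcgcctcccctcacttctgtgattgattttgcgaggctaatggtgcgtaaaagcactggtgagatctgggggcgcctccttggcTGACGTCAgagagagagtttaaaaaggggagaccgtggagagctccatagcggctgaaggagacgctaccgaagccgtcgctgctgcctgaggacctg
Vip: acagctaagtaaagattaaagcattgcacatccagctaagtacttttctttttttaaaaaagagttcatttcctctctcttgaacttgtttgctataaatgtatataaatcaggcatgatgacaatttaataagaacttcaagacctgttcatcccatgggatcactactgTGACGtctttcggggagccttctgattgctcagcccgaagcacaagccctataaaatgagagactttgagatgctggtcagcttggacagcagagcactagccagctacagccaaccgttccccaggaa
The Sst promoter holds the palindrome TGACGTCA from position -48, counted back from the start, and the Vip promoter holds a single TGACG from position -79.

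Sst had 149.7, 144 and 155 CPM in treated EAE, 134, 117 and 123 CPM in EAE and 140.2, 165 and 139 CPM in naive libraries. The EAE values lay below all values of both other groups. The log2 fold change was 0.26 in treated against untreated EAE (SE 0.09, edgeR adjusted p = 0.199) and -0.25 in EAE against naive (SE 0.09, edgeR adjusted p = 0.192), so neither passed. Vip had 34.0, 35.5 and 32.0 CPM in treated EAE, 36.8, 37.0 and 44.9 CPM in EAE and 31.7, 31.6 and 32.6 CPM in naive libraries, with the EAE values above all others. Its log2 fold changes were -0.22 (SE 0.09, edgeR adjusted p = 0.279) and 0.31 (SE 0.09, edgeR adjusted p = 0.131) in the same comparisons, and without EAE replicate 3 the first was -0.13. Npy, the neuropeptide Y gene, was at 50.5 ± 12.3 CPM in treated EAE and 38.6 ± 4.32 CPM in EAE (SD, n = 3 each; log2 fold change 0.39, SE 0.17, edgeR adjusted p = 0.317), against 45.7 ± 2.90 CPM in naive libraries. Without treated replicate 3 the Npy value was 0.25. Pvalb, of fast-spiking interneurons, ranged more widely, with 21.5, 29.5 and 46.9 CPM in treated EAE, 35.5, 21.3 and 39.6 CPM in EAE and 29.1, 32.6 and 48.5 CPM in naive libraries.

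Of the 4 interneuron members edgeR called 0 in any comparison and DESeq2 0. At an unadjusted p under 0.05 there were 3 in treated against untreated EAE, 2 in EAE against naive and 0 in treated EAE against naive. Of all tested genes, 15.1%, 16.4% and 1.71% were under that threshold. The other list of 22 interneuron genes had median log2 fold changes of 0.06, -0.03 and -0.06 in these comparisons, with 0 called by edgeR and 5, 3 and 1 at an unadjusted p under 0.05. DESeq2 called Lamp5, of this list, lower in EAE than in naive libraries. Its values were 120.5, 102 and 136.5 CPM in EAE and 175, 162.5 and 198 CPM in naive libraries. Cck had 171, 213 and 211 CPM in treated EAE, 158, 106 and 175 CPM in EAE and 229, 174.5 and 184 CPM in naive libraries.

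Among the thalamic genes Prkcd rose in EAE, and it was the only one of the 28 tested members that passed the edgeR test in any comparison. Prkcd (chromosome 14, 30595353 to 30626414), which encodes protein kinase C delta and marks thalamic relay neurons, had 30.4, 25.8 and 18.6 CPM in EAE and 13.1, 12.4 and 8.93 CPM in naive libraries. The lowest EAE library lay above the highest naive one. The log2 fold change was 1.12 (SE 0.20, 95% interval 0.67 to 1.56, edgeR adjusted p = 0.0384). The share of members called, 1 of 28, stands against 0.987% of all tested genes, 0.735% higher and 0.252% lower in EAE. The call was lost without naive replicate 1, 2 or 3, EAE replicate 1 or 2, or treated replicate 2 (edgeR adjusted p from 0.0573 to 0.123). It was also lost in a fit of only the EAE and naive libraries (edgeR adjusted p = 0.0659).

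Treated libraries had 13.0, 11.0 and 10.8 CPM of Prkcd, below all EAE libraries and within the naive range. Against untreated EAE the log2 fold change was -1.10 (SE 0.20, 95% interval -1.55 to -0.66, edgeR adjusted p = 0.0739), which did not pass. It passed with the replicate number as a block (edgeR adjusted p = 0.0151), with DESeq2 (adjusted p = 3.58e-05), with no filter on low counts (edgeR adjusted p = 0.0491) and with the striatal term (edgeR adjusted p = 0.0432), while the 15 alternatives together spanned adjusted p values from 3.58e-05 to 0.210. In treated EAE against naive the log2 fold change was 0.01 (SE 0.20, 95% interval -0.43 to 0.46).

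None of the other 3 thalamic members passed the edgeR or the DESeq2 test in any comparison. Tcf7l2, a transcription factor gene of thalamic neurons, was low throughout, with 4.54, 4.27 and 5.48 CPM in treated EAE, 5.32, 6.47 and 3.30 CPM in EAE and 3.51, 4.73 and 4.51 CPM in naive libraries. Slc17a6, the glutamate transporter gene of subcortical excitatory neurons, had 31.2, 17.4 and 16.8 CPM in treated EAE, 24.8, 26.9 and 42.7 CPM in EAE and 11.2, 26.9 and 45.4 CPM in naive libraries. It was lowest in naive replicate 1 and highest in naive replicate 3, libraries in which the striatal genes were at their highest and among their lowest. Calb2, the calretinin gene of thalamic midline neurons and of cortical interneurons, had 18.9, 10.6 and 5.70 CPM in treated EAE, 18.2, 20.2 and 14.4 CPM in EAE and 11.6, 13.9 and 12.2 CPM in naive libraries, with the EAE values above the naive ones. Its log2 fold change there was 0.49 (SE 0.36) with an edgeR adjusted p of 0.554. Of 9 other thalamic genes tested, edgeR and DESeq2 each called 0 in every comparison, and 1 had an unadjusted p under 0.05 in EAE against naive. Summed, the list of 10 had 81.3 to 109 CPM in treated EAE, 81.4 to 93.0 CPM in EAE and 74.2 to 97.5 CPM in naive libraries, led by Ntng1 and Plekhg1. Ntng1 had 56.7, 23.0 and 14.1 CPM in treated EAE, 29.5, 26.6 and 25.9 CPM in EAE and 17.6, 29.5 and 36.5 CPM in naive libraries, and Plekhg1 lay between 16.1 and 24.9 CPM in all 9.

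Prkcd is also expressed by myeloid cells. A list of 10 myeloid genes, added after the data were seen, summed to 277, 316 and 308 CPM in treated EAE, 252, 539 and 431.5 CPM in EAE and 274, 278 and 221.5 CPM in naive libraries. In EAE against naive 9 of the 10 were above 0 with a median log2 fold change of 0.69, and edgeR called 0. Prkcd was highest in EAE replicate 1, where the myeloid sum was within the naive range but single genes went both ways. There Lyz2, C1qa, Cd68 and Ms4a7 lay above all naive libraries, and Cx3cr1, P2ry12 and Itgam below all of them. Tmem119, Aif1 and Csf1r lay within the naive range. The part of these cells in the Prkcd values was not tested.

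**Figure D4:**
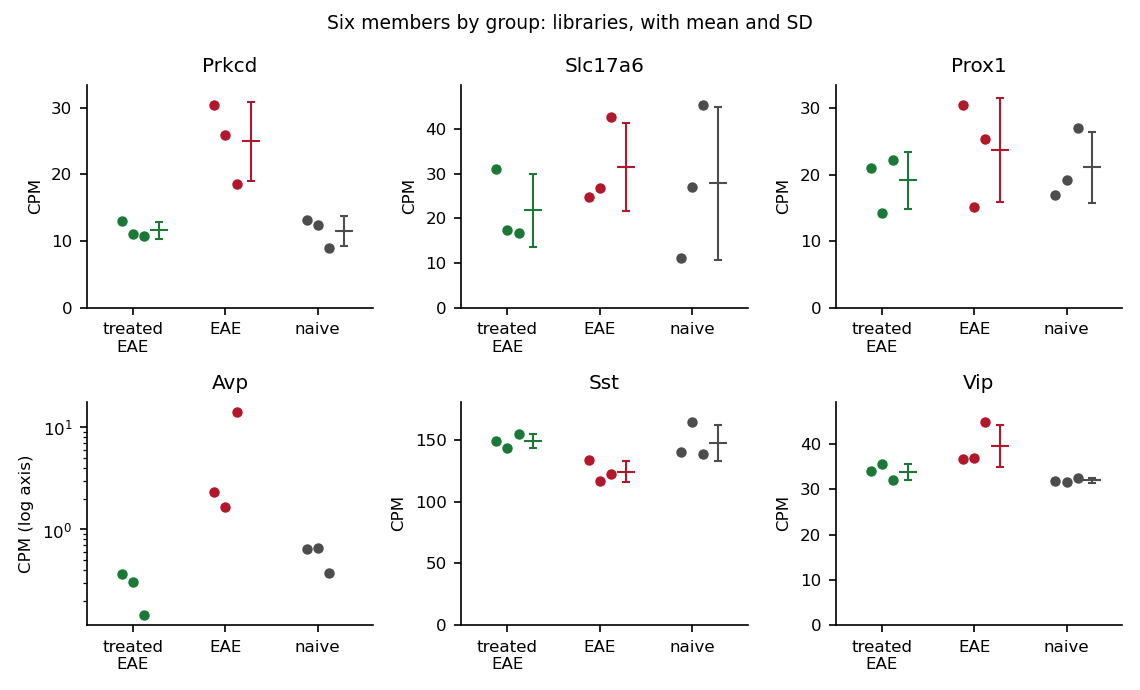
CPM of Prkcd, Slc17a6, Prox1, Avp, Sst and Vip in each library (points) by group, from left to right treated EAE, EAE and naive, with the mean and SD of 3 libraries beside the points except for Avp, which is on a log axis. The 3 EAE libraries lie above the 6 others for Prkcd, Avp and Vip and below them for Sst. Of all tested genes, 24% did not overlap between EAE and naive libraries and 19.2% between treated and untreated EAE.

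Prox1, which marks granule cells of the dentate gyrus in the hippocampus, had 21.0, 14.2 and 22.2 CPM in treated EAE, 30.5, 15.1 and 25.3 CPM in EAE and 16.9, 19.2 and 27.1 CPM in naive libraries. The groups overlapped, and the log2 fold change was -0.31 in treated against untreated EAE and 0.17 in EAE against naive (SE 0.28 for both, edgeR adjusted p = 0.671 and 0.831). Other hippocampal genes varied more. Fibcd1, of CA neurons, had 63.3, 11.3 and 9.85 CPM in treated EAE, 39.5, 9.90 and 45.6 CPM in EAE and 14.4, 41.6 and 29.9 CPM in naive libraries. Trpc6 lay between 6.11 and 13.0 CPM in all libraries. C1ql2, a dentate granule cell gene, had 7.57, 1.04 and 1.07 CPM in treated EAE, 10.5, 1.84 and 11.6 CPM in EAE and 0.626, 2.13 and 7.79 CPM in naive libraries. Both, like Prox1, were higher in EAE replicates 1 and 3 than in replicate 2, where the striatal genes were highest. Of the 8 listed, edgeR called 0 in each comparison. An unadjusted p under 0.05 was seen for 3 in treated against untreated EAE (15.1% of all tested genes) and 2 in EAE against naive (16.4%). DESeq2 called Lct lower in treated than in untreated EAE.

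Of the 4 hypothalamic peptide genes, Hcrt (hypocretin) had at most 4 counts and Pmch (melanin-concentrating hormone) at most 16 counts in any library, too few to be tested. Avp, the vasopressin precursor gene (chromosome 2, 130580620 to 130582588), had 0.366, 0.308 and 0.147 CPM in treated EAE, 2.30, 1.65 and 14.0 CPM in EAE and 0.648, 0.660 and 0.379 CPM in naive libraries. The EAE values lay above all others, and behind them stood 71, 51 and 403 counts. The log2 fold change was -4.38 in treated against untreated EAE (SE 0.89, edgeR adjusted p = 0.0948) and 3.39 in EAE against naive (SE 0.83, edgeR adjusted p = 0.0904), which did not pass, whereas DESeq2 called both (adjusted p = 4.71e-07 and 0.000118). The alternatives spanned adjusted p values from 4.71e-07 to 0.262 and from 0.000118 to 0.269. Without EAE replicate 3 the values were -2.80 and 1.80. Oxt, the oxytocin precursor gene, had 0.293, 0.213 and 0.0735 CPM in treated EAE, 0.909, 0.453 and 0.625 CPM in EAE and 0.380, 0.367 and 0.0689 CPM in naive libraries, with log2 fold changes of -1.70 (SE 0.59, edgeR adjusted p = 0.226) and 1.24 (SE 0.58, edgeR adjusted p = 0.328), the second of which was 0.82 without naive replicate 3.

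Sim1 and Otp, transcription factor genes of the neurons that make these peptides, also had their highest values in EAE libraries. Both were named after their values were seen. Otp was at 0.146, 0.119 and 0.0735 CPM in treated EAE, 0.519, 1.65 and 0.521 CPM in EAE and 0.201, 0.11 and 0.103 CPM in naive libraries. Sim1 was at 0.714, 1.13 and 1.77 CPM in EAE and at most 0.308 CPM in the other 6 libraries. Neither passed with edgeR (adjusted p from 0.0548 to 0.145 in treated against untreated EAE and in EAE against naive), and DESeq2 called both in both. Of the 11 hypothalamic genes tested that are not members, edgeR called 0 in each comparison. Their log2 fold changes went both ways: 6 above 0 and 5 below in EAE against naive. In treated against untreated EAE 5 were above 0 and 6 below. An unadjusted p under 0.05 was seen for 3 in treated against untreated EAE (15.1% of all tested genes) and 2 in EAE against naive (16.4%). Baiap3, the most abundant of the 11, had 37.7, 47.0 and 6.76 CPM in treated EAE, 55.2, 83.2 and 49.3 CPM in EAE and 29.5, 51.5 and 6.55 CPM in naive libraries. Its treated values lay below the EAE ones (log2 fold change -1.03, SE 0.79, edgeR adjusted p = 0.599). Gpr101 overlapped between all groups. Summed over the 13 listed genes, Sim1 and Otp included, libraries had 79.2, 64.7 and 17.1 CPM in treated EAE, 85.6, 112 and 66.1 CPM in EAE and 44.6, 71.2 and 19.0 CPM in naive mice. Their part in the Avp values was not tested.

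Over all 28 tested members, edgeR called 0 in treated against untreated EAE (0.22% of all tested genes, 0.0912% higher and 0.129% lower in treated mice), 1 in EAE against naive and 0 in treated EAE against naive (0%). At an unadjusted p under 0.05 there were 7, 5 and 0 members, and 15.1%, 16.4% and 1.71% of all tested genes. DESeq2 called 2, 2 and 0 members, and 690, 1051 and 3 of all genes. It was fitted to the 34714 genes of the table less the 7089 at 0 in all 9 libraries, a wider set than the 18644 of edgeR. Those all-gene counts are the background for every DESeq2 call named here. Groups did not overlap in 5 of 28 members (17.9%) in treated against untreated EAE, 1 higher and 4 lower in treated mice, where the share of all tested genes was 19.2% (9.93% higher and 9.28% lower). They did not overlap in 7 of 28 (25%) in EAE against naive, 5 higher and 2 lower in EAE, against 24% of all tested genes (12.2% higher and 11.8% lower), and in 1 of 28 (3.57%) in treated EAE against naive, lower in treated mice, against 6.25% (3.51% higher and 2.74% lower). These shares were close to those of all tested genes. The median absolute log2 fold change of the members was 0.35, 0.20 and 0.15 in the same order of comparisons, and 0.15, 0.16 and 0.08 for all tested genes. Since treated EAE and naive mice were both set against the same EAE libraries, opposite signs of a member in them are not independent.

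**Figure D5:**
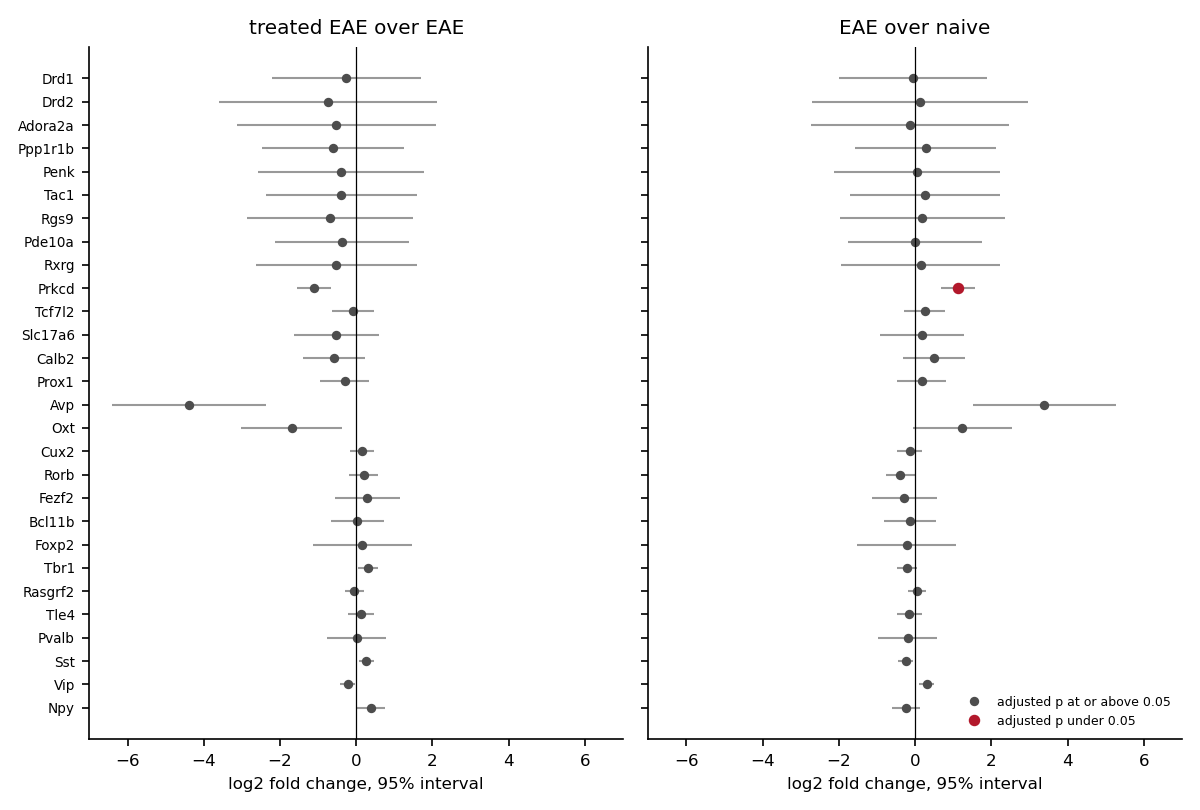
Log2 fold changes of the 28 tested members with 95% intervals from edgeR, treated over untreated EAE on the left and EAE over naive on the right, with the gene past an adjusted p of 0.05 in red. Prkcd in EAE over naive (1.12) is the only such gene, and the intervals of the striatal genes are wide, from -2.0 to 1.88 for Drd1.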

How the data were processed

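The authors deposited raw counts per gene symbol. The series' design text names FastQC for read quality, fastp for trimming, Hisat2 for alignment and bowtie2 for quantification, and the submitters' processing notes name FastQC 0.11.8 and build mm10. The sources used here do not give the annotation, strand setting or counting options. In each library more genes had a count of 2 than of 1, by a factor of 3.80 to 4.43, so counts may hold both mates of a pair and low counts are less certain than they look. The 9 columns used were matched by title, and 9 further columns that match no sample used here were left out.

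The test was edgeR 4.0.16 under R 4.3.3 (TMM factors, filterByExpr, robust glmQLFit, glmQLFTest) over all 9 libraries with group as the only factor (6 residual degrees of freedom). Benjamini-Hochberg adjustment ran over 18644 genes (threshold 0.05), and standard errors are the absolute log2 fold change over the square root of F. DESeq2 1.42.0, RLE factors, no filter, a replicate block, 2-group fits and leaving out each library were alternatives. The fit was tested on simulated data. No label says whether extraction or sequencing was done in batches. Each p-value sets a group difference against the spread between these libraries. Libraries of a group differed by a chi-square per degree of freedom of 16.7 or more, so none was a copy. Same-numbered treated and untreated EAE libraries deviated together (correlations 0.175, 0.245 and 0.238), and with different numbers these groups had -0.163 to -0.042. For EAE and naive the same-number values were 0.055, 0.114 and 0.36, and for treated EAE and naive -0.246, -0.121 and 0.199. Treated replicate 2 and naive replicate 1, of different number, reached 0.349. No label gives a pairing. The main fit took none, and the replicate block, over all 9 libraries, was only an alternative.

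The members and all lists were chosen with earlier results of these data known. Named are all members, genes of other lists that passed the test (there were none), the 2 most abundant of each other regional list, and Slc17a7, Gad1, Ttr and Mbp as references. Six3, C1ql2, Sim1, Otp, Lamp5, Ccn2 and Lct were named after their values were seen. All 30 symbols matched RefSeq (GRCm38.p6, the assembly of mm10). In GENCODE M21, exons of Ppp1r1b, Penk, Prox1 and Pmch overlap a gene on the opposite strand, so their values are uncertain to that extent.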

Additional observations from a re-analysis of the deposited data

How the results depend on the processing

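The number of members past the threshold was 1 in EAE against naive. It was 2 with DESeq2 and 0 in a fit of only these 2 groups. It was between 0 and 1 when each library was left out. In treated against untreated EAE it was 0, and 2 with DESeq2, 1 with no filter on low counts, 1 with the replicate block and 1 with the striatal term. In treated EAE against naive it was 0 throughout. The number of all genes called was 184 in EAE against naive, 1051 with DESeq2, and between 2 (without naive replicate 1) and 261 when each library was left out. It was 87 without treated replicate 2, 34 and 52 without EAE replicates 2 and 3, and 7 and 19 without naive replicates 2 and 3. In treated against untreated EAE it was 41, and 690 with DESeq2, 65 with the striatal term, 3 in the 2-group fit and between 4 and 38 when each library was left out. In treated EAE against naive it was 0, and 3 with DESeq2. With the replicate block, which joins same-numbered libraries of all 3 groups, 46 genes were called between treated and untreated EAE and 238 between EAE and naive. It changed the call of no member other than Prkcd. The median log2 fold change of the thalamic members in treated against untreated EAE was -0.55, and between -1.0 and -0.32 when each library was left out. Drd1 changed sign with the striatal term, to 0.0405 in treated against untreated EAE, 0.0554 in EAE against naive and 0.10 in treated EAE against naive. With each library left out it ranged from -1.0 to 0.24, -0.56 to 1.17 and -1.06 to 0.90 in these comparisons. In treated EAE against naive Prkcd ranged from -0.14 to 0.12 and Sst from -0.0315 to 0.089. The cause of these changes was not tested. With each library left out, the striatal medians ranged from -1.24 to 0.11 in treated against untreated EAE, from -0.51 to 1.29 in EAE against naive and from -1.06 to 0.69 in treated EAE against naive, so each changed sign. The median was above 0 in treated against untreated EAE without EAE replicate 2 and in treated EAE against naive without naive replicate 1, and below 0 in EAE against naive without EAE replicate 2 or naive replicate 2 or 3. With 3 libraries a group and a median BCV of 68.8% a striatal difference would be hard to detect, and Hcrt, Pmch, Oxt and Avp are limited by low counts.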

Other observations

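Markers of further tissues were measured as well. Ttr, which encodes the transport protein transthyretin made by choroid plexus, had 7.30, 1.45 and 4.85 CPM in treated EAE, 828, 8.35 and 85.3 CPM in EAE and 2.66, 18.6 and 32.4 CPM in naive libraries. It was highest in EAE replicates 1 and 3, the replicates in which Prox1 was higher than in replicate 2. Mbp, a myelin gene, was at 1304, 2139 and 4486 CPM in treated EAE, 2868, 2515 and 2757 CPM in EAE and 2401, 2150.0 and 3223 CPM in naive libraries, and its lowest and highest values were both in treated mice. Cerebellar genes summed to 29.9 to 46.4 CPM in any library, with Pcp2 and Gabra6, markers of Purkinje and granule cells, at no more than 12 and 5 counts. Olfactory bulb genes summed to 12.8 to 28.4 CPM, with the highest sum in EAE replicate 2. None of the choroid plexus, myelin, cerebellar or olfactory bulb genes passed the edgeR test in any comparison. At an unadjusted p under 0.05 there were 7 of 8 choroid plexus genes in treated against untreated EAE (15.1% of all tested genes) and 3 in EAE against naive (16.4%). DESeq2 called 3 and 1 of them, and 690 and 1051 of all genes. EAE replicate 1 was the highest library for 8 of these 8 genes, so they moved together and are not separate results.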
